A study of Mus musculus with 2 samples.

Results

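LIF receptor signalling was examined in primordial germ cells (PGCs) of the mouse, from which eggs and sperm derive, as the levels of the genes that carry the signal. Of 9 listed genes, 8 had a row in the deposited table of 18877 genes, chosen by symbol alone: the receptor genes Lifr and Il6st, the kinase genes Jak1 and Jak2, the transcription factor genes Stat3 and Stat5b, the feedback inhibitor gene Socs3 and the STAT cofactor gene Pias1. The ligand gene Lif had no row, and its level was not analysed here. RNA-seq was performed on E9.5 PGCs of strain C57BL6, untreated and collected with an antibody to SSEA1, a carbohydrate antigen on the surface of PGCs. The group held 2 samples, numbered replicate 1 and replicate 2, and described as biological repetitions. The methods call the embryos female, and the number of embryos behind a sample was not given in the sources used here. With a single group no comparison between conditions could be tested, so levels are described in each replicate.

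LIF is a secreted cytokine of the interleukin-6 family. It binds a receptor made of LIFR and the shared chain gp130, which Il6st encodes. JAK kinases held by these chains then phosphorylate STAT3, which enters the nucleus and switches on target genes. Among these targets is Socs3, whose protein shuts the receptor and its kinases down. LIF keeps mouse embryonic stem cells in the naive state and has long been added to cultures of PGCs to sustain them.

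Values are TPM, a relative abundance corrected for gene length. Numbers of reads were recovered from the table, 15912466 in replicate 1 and 5458695 in replicate 2. Replicate 1 was thus 2.92 times deeper. Intervals are exact Poisson 95% intervals, which cover counting error only. PGC markers were present, with 8 of 8 at 1 TPM or more in both replicates and a summed level of 5789 and 5854 TPM. Dppa3 made up most of this sum (5013 and 5075 TPM), and the lowest were Prdm1 (7.84 and 6.11 TPM) and Kit (8.84 and 7.96 TPM). Since 60.0% of all genes reached 1 TPM in both replicates, this count alone does not establish the identity or purity of the cells. Erythroid markers were also abundant (5 of 6 genes at 1 TPM or more in both replicates, summed level 3983 and 3765 TPM, none at 0 in both). Those of the other 6 cell types summed to at most 19.4 TPM in either replicate, with Lum and Foxa1 at 0 in both. Their part in the levels given below was not tested.

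Among the members, the Socs3 promoter alone held a STAT motif. The canonical STAT site TTCNNNGAA, in which N is any base and which reads the same on both strands, was searched in the 250 bases before each transcription start in RefSeq on GRCm38.p6. All 9 listed genes had a window, and Socs3 was the 1 with a match. Over all 27025 genes with a window, 8.13% held the motif, and over 42 genes of a wider pathway list it was found in 2, Socs3 and Irf1. Both promoters are shown because both genes are known STAT targets, while their transcripts were at very different levels (below). Capitals mark the motif.
Socs3, chr11:117969367-117969616, minus strand: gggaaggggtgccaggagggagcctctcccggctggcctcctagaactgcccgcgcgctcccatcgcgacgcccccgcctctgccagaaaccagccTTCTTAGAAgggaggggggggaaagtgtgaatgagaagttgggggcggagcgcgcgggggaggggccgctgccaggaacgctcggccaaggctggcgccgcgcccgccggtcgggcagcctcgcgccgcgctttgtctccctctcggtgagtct
Irf1, chr11:53769764-53770013, plus strand: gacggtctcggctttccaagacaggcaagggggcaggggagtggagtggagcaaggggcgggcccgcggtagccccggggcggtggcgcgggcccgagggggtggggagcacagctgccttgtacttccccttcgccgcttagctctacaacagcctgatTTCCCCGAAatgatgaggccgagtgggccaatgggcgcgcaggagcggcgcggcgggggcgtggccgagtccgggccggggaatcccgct
The motif began 154 bases before the RefSeq start of Socs3 and 90 bases before that of Irf1. In the GENCODE annotation used for the levels, Socs3 reaches from 117966079 to 117970047, so its window lies before the RefSeq start and within the GENCODE gene. A match describes these letters and does not show that a factor was bound.

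The receptor and kinase genes were expressed at moderate levels, whereas Stat3 was low and Stat5b and Socs3 were near the limit of detection. The level of 1 TPM was reached in both replicates by 5 of 8 genes (Il6st, Lifr, Jak1, Jak2 and Pias1). The share over all genes of the table was 60.0%, so the count is close to this background. The other 3 genes were under 1 TPM in both replicates. In such bulk samples, fewer cells that express a gene and less of its RNA per cell cannot be told apart. The median of the 8 genes on the log2(TPM + 1) scale averaged 2.11 ± 0.0677 (SD, n = 2), from 2.16 in replicate 1 and 2.06 in replicate 2, compared with 1.89 and 1.85 for all genes.

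**Figure D1:**
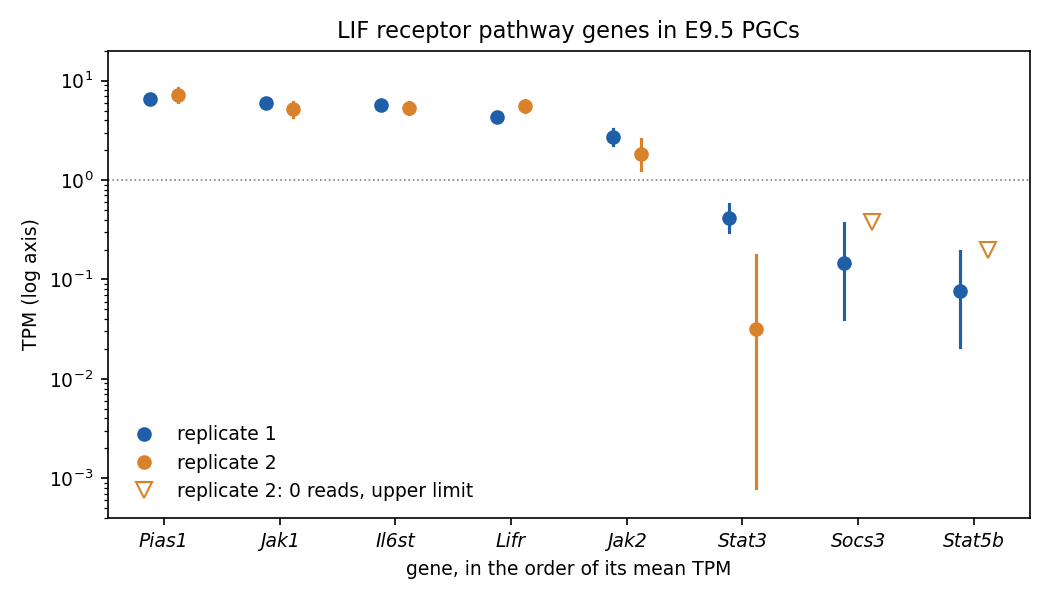
TPM (log axis) of the 8 LIF receptor pathway genes in replicate 1 (blue) and replicate 2 (orange) with exact Poisson 95% intervals, and the dotted line at 1 TPM. Open triangles give the upper limit of that interval for genes with 0 reads. Pias1, Jak1, Il6st, Lifr and Jak2 lie above 1 TPM in both replicates, and Stat3, Socs3 and Stat5b lie below it.

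Both chains of the LIF receptor were present at like levels. Il6st (ENSMUSG00000021756.12, chromosome 13, 112464070 to 112510086), which encodes gp130, was at 5.67 TPM in replicate 1 (598 reads, interval 5.22 to 6.14) and 5.34 TPM in replicate 2 (198 reads, 4.62 to 6.13). Its intervals overlapped, and 63.0% and 62.9% of the genes in the table were lower. Lifr (ENSMUSG00000054263.12, chromosome 15, 7090614 to 7197489), which encodes the other chain, LIFR, was at 4.35 TPM in replicate 1 (446 reads, 3.96 to 4.78) and 5.58 TPM in replicate 2 (201 reads, 4.83 to 6.41). It was the only one of these 8 genes other than Pias1 with a higher value in replicate 2, and its intervals did not overlap. These intervals cover counting error only, and the ratio of replicate 1 to replicate 2 was 0.780 for Lifr. Like Lifr, 3044 genes with reads in both libraries had a total of 500 or more but under 2000. Over these genes, the log2 ratio of TPM between the replicates had an SD of 0.341. The ratio of Il6st to Lifr was 1.30 in replicate 1 (exact 95% interval 1.15 to 1.47) and 0.956 in replicate 2 (0.782 to 1.17). On the log2(TPM + 1) scale the difference was 0.13 ± 0.26 (SD, n = 2), smaller than the spread between replicates. Neither gene shared a 100-base stretch with a transcript of another gene.

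Receptors and ligands of related cytokines were measured in part. Il11ra1, the receptor chain for interleukin-11, was lower, at 1.95 TPM in replicate 1 and 0.937 TPM in replicate 2, and 29.1% of its 100-base stretches also occur in Gm13305. Of the ligand genes, Ctf1 (cardiotrophin-1, which signals through the same LIFR and gp130 chains) was at 2.08 and 2.13 TPM, on 36 and 13 reads. Cntf (ciliary neurotrophic factor) went from 0.0980 TPM on 1 read to 1.67 TPM on 6 reads. Its value is uncertain because 76.9% of its stretches also lie in Zfp91.

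Jak1 was the highest of the 4 JAK kinase genes in both replicates. Jak1 (ENSMUSG00000028530.14, chromosome 4, 101152367 to 101265282), whose kinase is the main one bound to gp130, was at 5.98 TPM in replicate 1 (411 reads, 5.42 to 6.59) and 5.13 TPM in replicate 2 (124 reads, 4.27 to 6.12). Jak2 (ENSMUSG00000024789.13, chromosome 19, 29251828 to 29313080), which also serves receptors for erythropoietin and growth hormone, was at 2.72 TPM (130 reads, 2.27 to 3.23) and 1.84 TPM (31 reads, 1.25 to 2.62). The intervals of Jak1 and Jak2 stayed apart in each replicate. Jak1 exceeded Jak2 by 2.20-fold in replicate 1 (1.80 to 2.70) and 2.78-fold in replicate 2 (1.87 to 4.27), a difference of 1.01 ± 0.14 on the log2(TPM + 1) scale (SD, n = 2). Jak3, best known from lymphoid cells, was at 2.56 and 2.46 TPM, and Tyk2 at 1.82 and 1.79 TPM. Of the 100-base stretches, 5.51% of those of Jak3 also occur in Insl3 and 6.21% of those of Tyk2 in 1700084C06Rik. The ratio of Jak2 to Jak3 was 1.06 (0.828 to 1.37) and 0.750 (0.458 to 1.21), so their order was not resolved at this depth.

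Stat3 transcripts were scarce. Stat3 (ENSMUSG00000004040.16, chromosome 11, 100885098 to 100939540), the main effector of gp130, was at 0.420 TPM in replicate 1 (38 reads, 0.297 to 0.576) and 0.0314 TPM in replicate 2 (1 read, 0.000795 to 0.175). Both values were low, with 21.2% and 15.8% of genes below them, and the intervals did not overlap. Il6st exceeded Stat3 13.5-fold in replicate 1 (9.73 to 19.3) and 170-fold in replicate 2 (30.2 to 6746), and Jak1 exceeded it 14.3-fold (10.2 to 20.4) and 163-fold (28.8 to 6508). The ratios to Stat3 in replicate 2 rest on its single read, and their lower limits are the firmer figures.

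**Figure D2:**
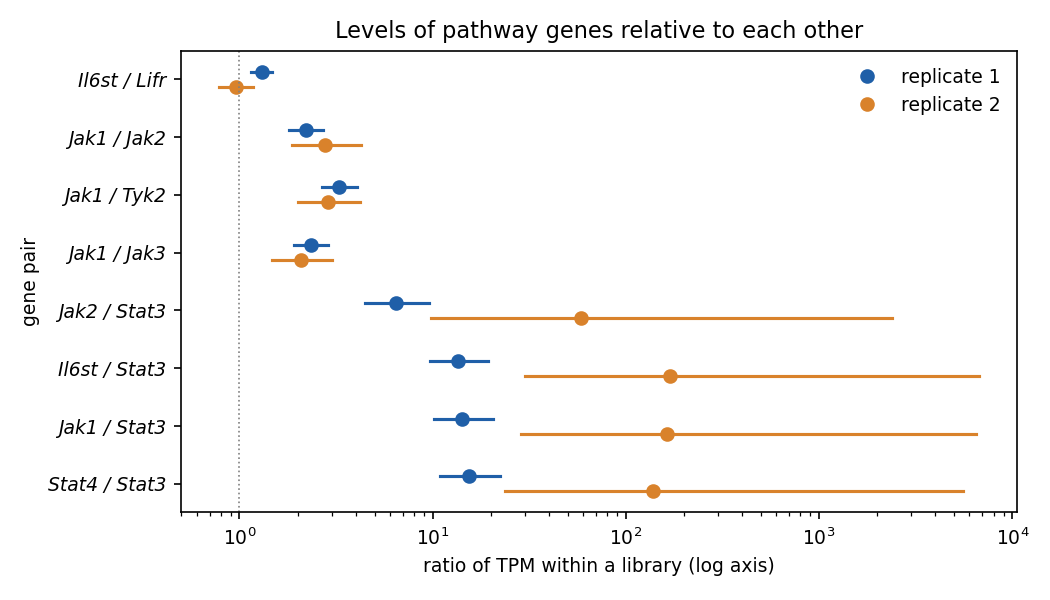
Ratio of TPM of gene pairs within each library (log axis) with exact 95% counting intervals, replicate 1 in blue and replicate 2 in orange. The ratio of Il6st to Lifr lies near 1, Jak1 lies 2.09-fold to 3.28-fold above the other JAK genes, and each gene set against Stat3 lies at least 6.48-fold above it.

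The difference of Stat3 between replicates was larger than its counting error. At the depth of replicate 2, the value of replicate 1 would give 13.4 reads, where 1 was found, and the ratio of replicate 1 to replicate 2 was 13.4 (2.26 to 542). Differences over 4-fold occurred in 14.9% of the 4147 genes whose reads in both libraries summed to 20 or more but stayed under 100. The gap of Stat3 was well past this 4-fold limit, and the share of genes with a gap of 13.4-fold or more is not given here. Some marker lists of other cell types were lower in replicate 2 and others were not, while 9688 of all 18877 genes were lower. In replicate 2, 4 of 4 macrophage genes had lower values (summed level 19.4 and 9.53 TPM, none at 0 in both replicates), as did 4 of 5 endothelial genes (12.9 and 11.0 TPM, none at 0 in both), among them Emcn with 109 reads and 0 reads. The other endothelial genes with lower values were Kdr (0.850 and 0.166 TPM), Tek (1.29 and 0.635 TPM) and Cldn5 (0.446 and 0.212 TPM). Pecam1, the highest endothelial gene, went the other way (8.23 and 9.99 TPM) and made up most of the endothelial sum in both replicates. Lower values were found for 4 of 6 erythroid and 3 of 5 gonadal epithelium genes (3.91 and 3.99 TPM), and for none of the mesenchyme (2.37 and 3.95 TPM), neural (6.41 and 7.05 TPM) and gut endoderm genes (0 and 0.505 TPM). Their part in the Stat3 difference was not tested. Stat3 shares 72 exonic bases with Stat5a on the opposite strand, and the use of strand in the counting was not given in the sources used here.

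Stat5b, which transmits growth hormone and interleukin signals, was lower still. Stat5b (ENSMUSG00000020919.11, chromosome 11, 100780731 to 100850724) was at 0.0760 TPM in replicate 1 (4 reads, 0.0207 to 0.195) and at 0 in replicate 2, where 0 reads allow up to 0.162 TPM by the limit of 3 reads, and 0.199 TPM by the upper end of the exact interval, which the plot of the 8 genes shows. The replicates did not differ beyond counting, since 4 reads in replicate 1 correspond to 1.41 at the depth of replicate 2. Stat3 exceeded Stat5b 5.52-fold in replicate 1 (1.99 to 21.3), and in replicate 2 the ratio was not measurable. Of the Stat5b stretches, 4.79% also occur in its neighbour and near-copy Stat5a, and its value is uncertain to that extent.

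The level of Stat3 was compared with the rest of its family. Of 7 STAT genes, 5 had a row and 1 reached 1 TPM in both replicates, beside 60.0% of all genes. This was Stat4, a mediator of interleukin-12 signals, at 6.44 TPM (237 reads, 5.65 to 7.31) and 4.33 TPM (56 reads, 3.27 to 5.62). Stat4 exceeded Stat3 15.3-fold in replicate 1 (10.9 to 22.2) and 138-fold in replicate 2 (23.7 to 5538). Part of its exons is shared on the same strand with Gm28177, which holds 18% of its 100-base stretches. Stat2 was at 1.12 and 0.707 TPM and Stat6 at 0.621 and 0.476 TPM, so that Stat3 and Stat5b were the lowest STAT genes in each replicate.

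Socs3, the direct feedback target of STAT3, was at the limit of detection. Socs3 (ENSMUSG00000053113.3, chromosome 11, 117966079 to 117970047) was at 0.146 TPM in replicate 1 (4 reads, 0.0397 to 0.373) and at 0 in replicate 2, where 0 reads allow up to 0.310 TPM by the limit of 3 reads and 0.382 TPM by the exact interval. Its replicates, like those of Stat5b, could not be told apart at this depth. Irf1, the other gene with the motif shown above, was at 7.09 TPM (268 reads) and 7.45 TPM (99 reads), above 1 TPM in both replicates. The same motif therefore stood before the RefSeq start of a gene that was readily detected and of one with almost no reads. For Socs3 this position lies within the GENCODE gene used for its level.

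Of 8 genes of the SOCS family, 6 had a row and 4 reached 1 TPM in both replicates, near the 60.0% of all genes. Socs2, an inhibitor of growth hormone and STAT5 signals, was the highest at 27.3 TPM (2472 reads, 26.2 to 28.4) and 27.6 TPM (878 reads, 25.8 to 29.4). Socs2 exceeded Socs3 187-fold in replicate 1 (73.1 to 689), and in replicate 2, where Socs3 had 0 reads, the ratio was 88.8 with Socs3 set at 3 reads and the lower end of its exact interval was 72.0. With the length of the longest coding transcript in place of all exons, the ratio in replicate 1 was 710. Socs6 was at 7.74 and 4.36 TPM, Socs4 at 5.29 and 3.04, and Socs5 at 2.42 and 3.61 TPM, while Socs7 stayed under 1 TPM at 0.738 and 0.823. Socs3 was the lowest of the 6.

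Pias1 had the highest mean of the 8 genes. Pias1 (ENSMUSG00000032405.10, chromosome 9, 62878368 to 62987924), which encodes a SUMO ligase that binds STAT proteins and restrains their activity, was at 6.53 TPM in replicate 1 (424 reads, 5.92 to 7.18) and 7.18 TPM in replicate 2 (164 reads, 6.13 to 8.37). Its intervals overlapped, and 65.5% and 67.9% of genes were lower. Within its family Pias2 was higher, at 16.5 and 11.5 TPM. Pias3, the member named for its action on STAT3, was at 0.591 and 1.45 TPM, and Pias4 was at 0.683 and 0.890 TPM.

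The phosphatases that act on JAKs, STATs and their receptors were all above 1 TPM in both replicates (4 of 4, beside 60.0% of all genes). Ptpn2, which removes phosphate from JAK1 and STAT proteins in the nucleus and cytoplasm, was at 54.8 and 55.7 TPM, the highest of all 43 genes of the wider pathway list with a row. Ptpn6, best known from blood cells, followed at 25.2 and 22.8 TPM. Erythroid markers were abundant (above), whereas macrophage markers summed to 19.4 and 9.53 TPM. The part of such cells in the Ptpn6 level was not tested. Ptpn11, which links gp130 to the MAPK branch, was at 11.0 and 9.62 TPM. Ptpn1 was at 2.93 and 1.30 TPM.

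The order of the 8 means was Pias1 (6.86 ± 0.461 TPM, SD, n = 2), Jak1 (5.56 ± 0.601), Il6st (5.50 ± 0.235), Lifr (4.97 ± 0.866), Jak2 (2.28 ± 0.619), Stat3 (0.225 ± 0.274), Socs3 (0.0728 ± 0.103) and Stat5b (0.0380 ± 0.0537). On the log2(TPM + 1) scale, the gaps between Pias1 and Jak1 (0.26 ± 0.22), Lifr and Jak2 (0.87 ± 0.48) and Jak2 and Stat3 (1.43 ± 0.05) exceeded the SD of the replicates. Those between Jak1 and Il6st (0.01 ± 0.08), Il6st and Lifr, Stat3 and Socs3 (0.18 ± 0.19) and Socs3 and Stat5b (0.05 ± 0.06) did not. The widest of these gaps was that between Jak2 and Stat3, on a scale that compresses differences among genes under 1 TPM. With the length of the longest coding transcript, the ratio of Jak2 to Stat3 in replicate 1 was 4.11 in place of 6.48, and that of Pias1 to Jak1 was 0.910 in place of 1.09. By all exons, the exact interval of Pias1 to Jak1 was 0.951 to 1.25 in replicate 1 and 1.10 to 1.78 in replicate 2. The order of Pias1 and Jak1 was therefore not resolved in replicate 1.

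Known targets of STAT3 were at a wide range of levels. Of 15 target genes, 14 had a row, 9 reached 1 TPM in both replicates, near the 60.0% of all genes, and 4 were under 1 TPM in both. Mcl1, an inhibitor of cell death, was the highest at 47.7 and 43.6 TPM. Of the naive pluripotency genes on the list, Klf5 was at 18.7 and 12.1 TPM, Tfcp2l1 at 7.35 and 5.99, Klf4 at 2.10 and 1.18, and Gbx2 at 1.11 and 1.79 TPM. The value of Gbx2 is uncertain because 40.8% of its 100-base stretches also occur in D130058E05Rik. Klf5 exceeded the related Klf4 8.90-fold (6.86 to 11.7) and 10.3-fold (5.75 to 20.2), or 13.7-fold in replicate 1 by the longest coding transcripts.

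The targets with roles in acute responses were also spread. Cebpd was at 11.5 and 10.8 TPM, Fos at 9.30 and 11.6, and the kinase gene Pim1 at 7.98 and 10.2 TPM. Of the 100-base stretches, 12.4% of those of Cebpd also occur in Spidr and 5.62% of those of Pim1 in Gm26885. Junb was the lowest target with 0.274 and 0.390 TPM, and Cebpb was at 0.490 and 0.796, Myc at 0.581 and 0.991 and Bcl2l1 at 0.963 and 0.652 TPM. Of the Cebpb stretches, 15.2% also occur in Tmem189. Pim3 passed 1 TPM in replicate 1 alone (1.26 and 0.370 TPM). Many of these genes also answer to other signals, so their levels do not measure STAT3 activity.

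**Figure D3:**
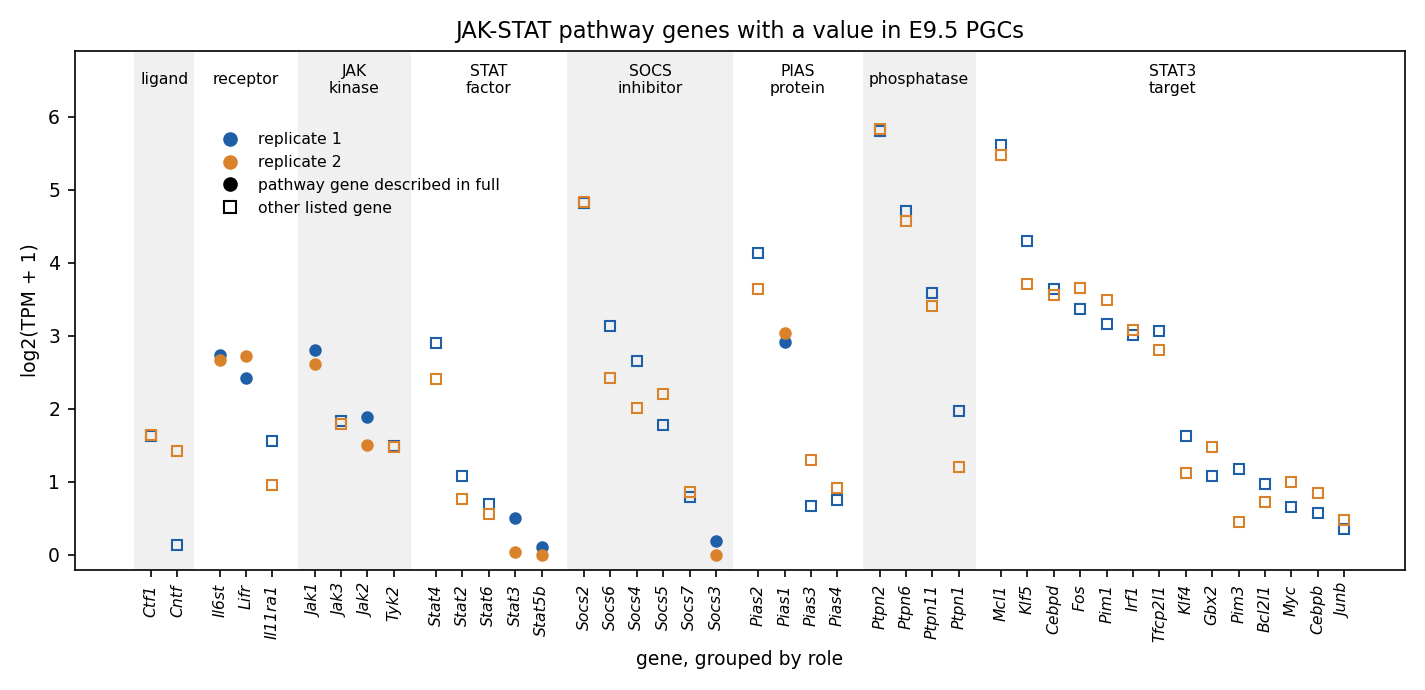
log2(TPM + 1) of 42 of the 43 genes of the wider pathway list with a row, by role and sorted by mean TPM within each role, replicate 1 in blue and replicate 2 in orange; filled circles are the 8 genes described in full and open squares the other listed genes. Stat3 and Stat5b are the lowest STAT genes and Socs3 is the lowest SOCS gene, while Ptpn2 is the highest gene of the list.

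Across the whole wider list, 43 of 56 genes had a row, 27 of them reached 1 TPM in both replicates and 11 were under 1 TPM in both. Over all 18877 genes the numbers were 11329 (60.0%) and 4703, so these shares, too, are close to the background. Its median on the log2(TPM + 1) scale was 1.83 in replicate 1 and 1.65 in replicate 2, below the median of all genes.

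Differences between the replicates on the log2(TPM + 1) scale were small for the 5 genes above 1 TPM. None of the 8 genes differed more than 2-fold on this scale, compared with 10.2% of all genes, and 6 of 8 were lower in replicate 2, as were 9688 of all 18877 genes. The median difference (replicate 2 minus replicate 1) was -0.15 over the 8 genes, and -0.01 over all genes. Over the 8 genes it was -0.38 with a pseudocount of 0.1 and -0.07 with the genes at a mean of at least 1 TPM alone. The largest was -0.46 for Stat3, and those of Jak2 (-0.39) and Lifr (0.30) followed. A gene under 1 TPM in both replicates cannot pass 2-fold on this scale. This holds for Socs3, Stat5b and Stat3, whatever the 13.4-fold gap of Stat3. With a pseudocount of 0.1, 2 of the 8 genes passed 2-fold, against 23.7% of all genes.

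**Figure D4:**
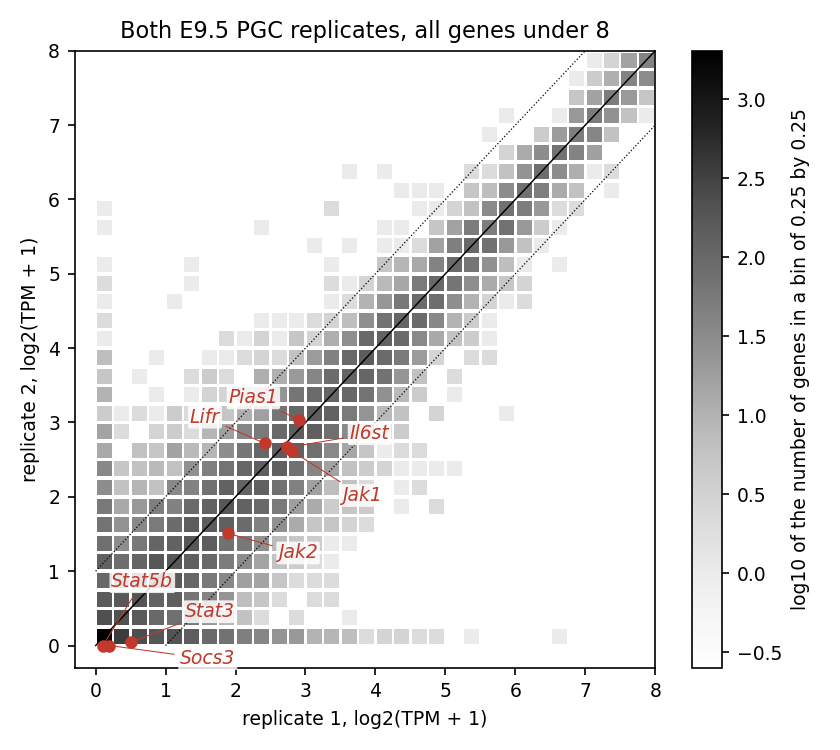
Replicate 2 against replicate 1 on the log2(TPM + 1) scale, with grey squares shaded by the number of genes and the 8 LIF receptor pathway genes as red points; the solid line is equality and the dotted lines are 2-fold differences. All 8 genes lie between the dotted lines, as any gene under 1 TPM in both replicates must.

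Genes with the most similar values were sought for the 5 members above 1 TPM, by the distance on the log2(TPM + 1) scale over both replicates. Il6st was closest to Ensa (distance 0.00472) and Tbl1xr1 (0.00716), Lifr to Dvl2 (0.00568) and Fam57a (0.0199), and Pias1 to Gm18562 (0.00466) and Slc29a1 (0.0135). Jak1 was closest to Ints4 (0.0134), and Jak2 to 2310034O05Rik (0.00863) and Ankrd46 (0.00976). With 2 libraries of 1 group these are genes of equal level and no more.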

How the data were processed

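The authors mapped clean reads to mm10 with Hisat2, summed them over genes with featureCounts, and the deposited values are TPM. Bowtie2, RSEM, R 3.4.2 and DESeq2 are also named in the submitters' processing notes. Versions of the aligner and counter, the annotation and the use of strand are not given in the sources used here. The methods name Smart-seq2 cDNA, whereas the labels name another library kit.

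The 8 genes, the wider pathway list and the marker lists were chosen with earlier results of these data known. The rule for naming took all listed genes with a row, of which 1 enters the counts and is not reported here by name. Levels were analysed as log2(TPM + 1), with detection set at 1 TPM. With 2 samples in 1 group no conditions could be compared and no test was run. The spread between these samples and counting intervals within each are given. Exonic lengths of 18748 symbols came from GENCODE M21 (GRCm38, the assembly of mm10), and 129 symbols were unmatched. TPM times length was divided by the amount that 1 read adds, found as the commonest low value. Under 50 reads, 96.7% and 95.8% of values came within 0.02 of a whole number. Reads of named genes were accepted within 0.1 of a whole number, and where none are given for a gene outside the 8 they were either not needed or not whole. The recovery was also tested on simulated data. Intervals of ratios are conditional binomial (Clopper-Pearson). The limit of a zero was set at 3 reads. Alternatives were a pseudocount of 0.1, detection at 5 or 0.1 TPM, a filter on mean TPM, rescaling to genes of at least 200 exonic bases and leaving out each replicate. Lengths of the longest coding transcript were added after seeing the data. Python 3.11.15, numpy 2.4.6, pandas 2.3.3, scipy 1.17.1 and matplotlib 3.10.9 were used.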

Additional observations from a re-analysis of the deposited data

How the results depend on the processing

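For 8 results, 43 alternative values were computed, of which 33 stayed within the spread between replicates or within 1.5 times the count. None of the 43 reversed a direction that exceeded that spread. Part of this was fixed in advance. With 2 replicates, leaving out either replicate cannot move a mean past its SD, which holds for the median level and the gene pairs. The filter on mean TPM could not change Il6st against Lifr or Jak1 against Jak2, whose genes all pass it. Detection at 5 TPM left 3 of the 8 genes and 15 genes of the wider list. The median level of the 8 genes (2.11) became 1.75 with a pseudocount of 0.1, 2.70 with the genes at a mean of at least 1 TPM alone, 2.28 after rescaling to genes of at least 200 exonic bases and 1.87 with the length of the longest coding transcript. The difference of Jak1 and Jak2 (1.01) became 1.27 with a pseudocount of 0.1 and 1.40 with transcript length, and that of Stat3 and Stat5b (0.22) became 0.98 with a pseudocount of 0.1. That pseudocount put 2 of the 8 genes, Stat3 and Socs3, past 2-fold between replicates, against 23.7% of all genes. When each replicate was left out, the values were 5 to 5 genes detected of the 8 and 29 to 30 of the wider list, 2.06 to 2.16 for the median, -0.05 to 0.32 for Il6st against Lifr, whose direction is therefore unsettled, 0.91 to 1.11 for Jak1 against Jak2 and 0.04 to 0.40 for Stat3 against Stat5b. The filter on mean TPM gave no value for Stat3 against Stat5b. No paired analysis was possible because there was only 1 group. Depth limits Stat3, Stat5b and Socs3 most, since replicate 2 held 1, 0 and 0 reads for them.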
